A study of Homo sapiens with 14 samples.

Results

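The signals compared here came from LNCaP, a human prostate cancer line that responds to androgen, after the cells had received a plasmid together with an siRNA, or an siRNA alone. The series holds 14 arrays, and 8 of them enter the comparison: 4 arrays with a plasmid for EZH2 (the add-back arrays) and 4 without (the siRNA-only arrays). The wild-type add-back (2 arrays) had si-EZH2 and a plasmid for an siRNA-resistant EZH2, and the T350A add-back (2 arrays) had si-EZH2 and the same gene with alanine in place of threonine at residue 350. The siRNA-only arrays had si-EZH2 without plasmid (2 arrays) or si-Control, a control siRNA (2 arrays). All 4 groups were profiled 60 h after transfection. EZH2 is the enzyme that methylates histone H3 within the Polycomb complex PRC2. The 6 other arrays, of untransfected cells given DMSO, TSA (an inhibitor of histone deacetylases) or Roscovitine (an inhibitor of cyclin-dependent kinases) for 24 h, served only to estimate the spread.

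The question was which genes moved with plasmid delivery under both constructs, whichever siRNA they were set against. No array with an empty plasmid is among those used here, so the effect of receiving plasmid DNA and that of expressing EZH2 from it cannot be told apart. No source used here says that a group's 2 arrays are separate cultures, and the p-values therefore cover only the spread among these samples, which may be technical. The sources used here give neither the plasmid's backbone nor its dose.

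As background, cells that sense foreign DNA or RNA in the cytoplasm, or that meet cytokines such as TNF and interleukin 1, release the transcription factor NF-kappaB from its inhibitors. NF-kappaB dimers enter the nucleus and switch on chemokines, cytokines, acute phase proteins, and their own inhibitors, which end the response. Interferons act beside it through STAT proteins and raise antiviral and antigen presentation genes. Prostate epithelial cells are known to make chemokines when NF-kappaB is active.

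A gene was called when its adjusted p was under 0.05 for the mean of both add-back groups minus the mean of both siRNA-only groups and when each add-back group lay on the same side of each siRNA group in all 4 differences between them. By this rule 1690 of 19775 genes (8.55%) were called, 802 (4.06%) higher and 888 (4.49%) lower in the add-back arrays. Counts of called members of any list below stand against these shares of all genes. The 4 add-back arrays did not overlap the 4 siRNA-only arrays in 672 (3.4% of all genes) and 684 (3.46%) of these, and in 5.55% (higher) and 5.92% (lower) of all genes, called or not. The rises were larger: the median difference was 0.49 on the log2 scale among the genes called higher and -0.35 among those called lower, against -0.0074 over all genes. A difference of more than 1 was found in 126 genes called higher (0.637%) and in 5 called lower (0.0253%). All differences below are log2(signal + 16), which understates the change of dim genes, and ± gives the standard error. Signals themselves are given on the files' linear scale. Without any one of the 4 siRNA-only arrays, 441 to 472 genes were called higher and 300 to 404 lower. Fewer were also called lower without either DMSO array (554 each), without wild-type add-back replicate 1 (538) and without T350A add-back replicate 1 (585). Requiring an adjusted p under 0.05 against each siRNA separately left 346 genes higher (1.75%) and 192 lower (0.971%), and requiring it in each of the 4 differences between groups left 97 higher (0.491%) and 3 lower (0.0152%).

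EZH2 itself had signals of 839 and 822 in the wild-type add-back and 806 and 826 in the T350A add-back, against 392.5 and 393 with si-EZH2 and 1161 and 1221 with si-Control. It was higher in all 4 add-back arrays than with si-EZH2 and lower than with si-Control, so it was not called. Which part of this signal came from the plasmid was not tested. The 8 arrays were alike in scale, with a median signal between 107.25 and 117.03 and 32.16% to 34.53% of probe sets under a signal of 50. None of 17 ribosomal protein genes was called, and their median difference was 0.02. Of 10 measured LNCaP and prostate luminal markers, 0 were called higher and 2 lower (20%, against 4.49% of all genes). In the wild-type add-back alone 5 of the 10 were lower under the adjusted threshold, against 7.96% of all genes. In the T350A add-back alone 0 were, against 0.334%. The 2 called lower were ACP3 (prostatic acid phosphatase, -0.48 ± 0.10) and TRPM8 (a cation channel, -0.31 ± 0.08). Neither was called without si-Control replicate 1 or without either si-EZH2 array, and TRPM8 kept its call in only 2 of the 14 fits that leave out 1 array (without si-Control replicate 2 or T350A add-back replicate 2). The summed signal of the 10 markers was 28779.9 to 39497 in the add-back arrays and 37767 to 39757 in the siRNA-only arrays. Of 15 leukocyte markers, 1 was called higher, LCP1 (an actin-bundling protein), at 4005 to 5779 in the add-back arrays and 2287 to 2598 in the siRNA-only arrays, and 2 were called without wild-type add-back replicate 2 or T350A add-back replicate 2. The share called higher was 6.67%, against 4.06% of all genes. The summed signal of the 15 was 5275 to 6996 in the add-back arrays and 3499.8 to 3846 in the siRNA-only arrays. The defining leukocyte marker PTPRC averaged 77.4 in the add-back arrays and 76.5 in the siRNA-only arrays, and the monocyte marker CD14 was at 1 on every add-back array. The part of other cell types in the results below was not tested beyond these values. None of 16 fibroblast and endothelial markers was called, with summed signals of 2819 to 3761 in the add-back arrays and 2833 to 3283 in the siRNA-only arrays. In bulk RNA, fewer cells of a type and less RNA per cell cannot be told apart.

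The largest rises were in chemokines, the secreted proteins that attract leukocytes. Of 38 measured chemokine genes, 8 were called higher and 1 lower. The rises ran up to 8.47, while the median of all 38 was 0.073. Among called genes without overlap between the arrays, 7 of the 12 that rose most were chemokines, and the others were SERPINA3, TNFAIP3, TNFSF18, IL32 and GBP1.

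CCL20, which attracts cells bearing the receptor CCR6, had signals of 14169.7 and 11267 in the wild-type add-back and 13242 and 11148 in the T350A add-back, against 23.0 and 21.8 with si-EZH2 and 10.8 and 22.4 with si-Control. The 4 add-back arrays stood together, far above all 4 siRNA-only arrays, and the difference was 8.47 ± 0.12 (adjusted p = 1.87e-09). CXCL8 (interleukin 8, a neutrophil attractant) measured 8019.9 and 6167 in the wild-type add-back and 9763 and 5559.6 in the T350A add-back, against 54.0 and 47.1 with si-EZH2 and 30.9 and 29.7 with si-Control. The groups did not overlap, and the difference was 7.02 ± 0.16 (adjusted p = 6.84e-08). CCL8, a monocyte attractant, reached 4845 and 3098 in the wild-type add-back and 5991 and 2553 in the T350A add-back, against 134 and 131 with si-EZH2 and 131 and 127 with si-Control. The 4 siRNA-only arrays were nearly equal and all lay far below the lowest add-back array, and the difference was 4.74 ± 0.24 (adjusted p = 2.93e-05).

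CCL2, the monocyte chemoattractant MCP-1, had 841 and 471 in the wild-type add-back and 1218 and 350.3 in the T350A add-back, against 4.38 and 6.65 with si-EZH2 and 1.79 and 1.57 with si-Control. The siRNA-only values lay near the lower end of the scale, so the difference of 5.08 ± 0.32 depends on the constant added before the logarithm. CXCL2, a neutrophil attractant close in sequence to CXCL1 and CXCL3, had 1393 and 1475 in the wild-type add-back and 6067 and 1329 in the T350A add-back, against 10.5 and 1.85 with si-EZH2 and 5.81 and 3.95 with si-Control. T350A add-back replicate 1 stood far above the 3 other add-back arrays, and these in turn stood far above all siRNA-only arrays (difference 6.58 ± 0.38, adjusted p = 4.65e-05). The probe set for CXCL2 carries the suffix that the manufacturer gives where probes can match other transcripts, and the gene's 2 other probe sets differed by only 0.41 and 0.21. CXCL3 showed the same order of arrays at a lower level, with 122 and 90.8 in the wild-type add-back and 704 and 80.5 in the T350A add-back, against 17.9 and 29.4 with si-EZH2 and 15.7 and 13.96 with si-Control. Its difference of 2.36 ± 0.50 (adjusted p = 0.0204) was not past the threshold without any one of the 4 siRNA-only arrays or without wild-type add-back replicate 1, nor with the 8 transfection arrays fitted alone.

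CXCL10 and CXCL11, interferon-induced chemokines that bind CXCR3 on T cells, rose under both constructs. CXCL10 had 4114 and 1862 in the wild-type add-back and 2358 and 1048 in the T350A add-back, against 93.3 and 84.2 with si-EZH2 and 82.2 and 89.5 with si-Control. CXCL11 had 1302 and 530.1 in the wild-type add-back and 667 and 402 in the T350A add-back, against 26.2 and 51.8 with si-EZH2 and 19.0 and 16.7 with si-Control. In both genes the groups did not overlap (differences 4.35 ± 0.28 and 3.99 ± 0.27, adjusted p = 7.83e-05 and 0.000119). CXCL9, the other ligand of CXCR3, was not called, at 64.3 to 116 in the add-back arrays and 52.5 to 78.3 in the siRNA-only arrays.

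**Figure D1:**
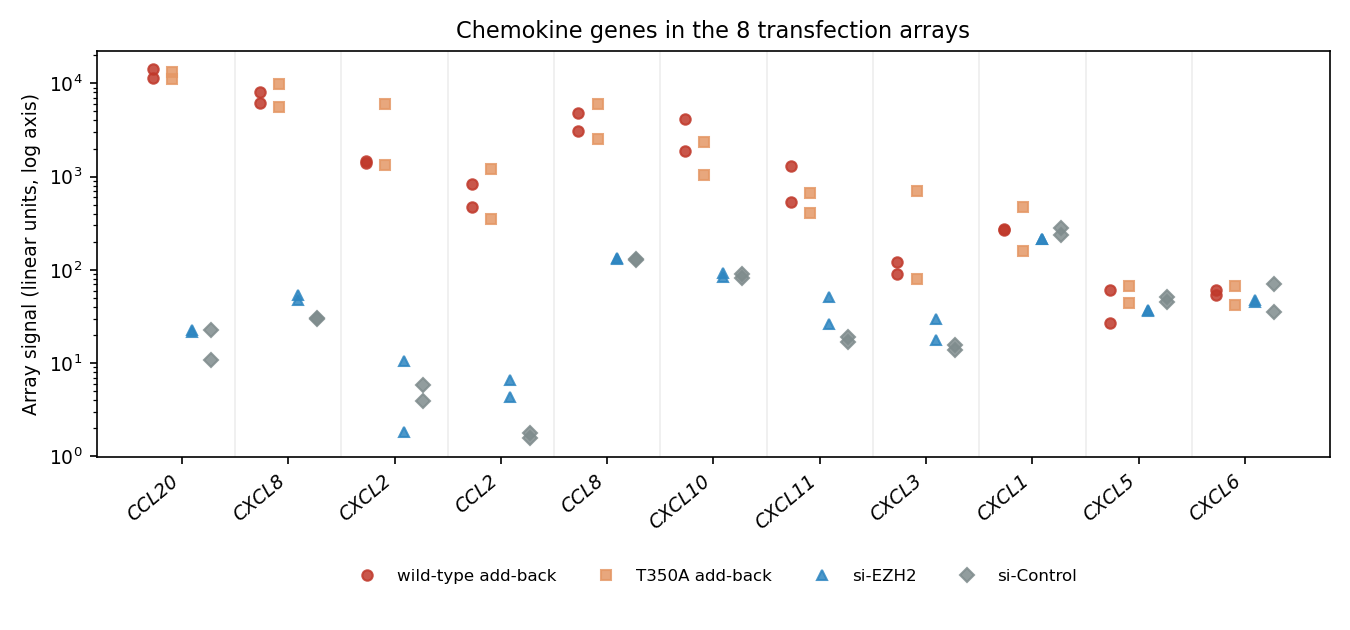
Array signal (log axis) of the 8 chemokine genes called higher and of CXCL1, CXCL5 and CXCL6, which were not called. Each point is 1 array: circles are the wild-type add-back, squares the T350A add-back, triangles si-EZH2 and diamonds si-Control (2 arrays each). The 4 add-back arrays stand clear of the 4 siRNA-only arrays for CCL20 through CXCL3, and T350A add-back replicate 1 is the high square of CXCL2 (1329 to 6067 over the add-back arrays) and CXCL3.

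The chemokine genes that rose have close neighbours that did not. In the RefSeq order of protein-coding genes, CXCL8, CXCL6, CXCL1, PF4, PPBP, CXCL5, CXCL3 and CXCL2 follow one another on chromosome 4, with 1 other gene in the row, between CXCL6 and CXCL1. CXCL8 at one end and CXCL3 and CXCL2 at the other were called, and the 5 genes between them were not. CXCL1 had 271 and 274 in the wild-type add-back and 473 and 161 in the T350A add-back, against 217 and 215 with si-EZH2 and 280.4 and 238 with si-Control, with a difference of 0.21 ± 0.26 (adjusted p = 0.722). The add-back and siRNA-only arrays overlapped, with T350A add-back replicate 1 the highest and T350A add-back replicate 2 the lowest of the 8. CXCL5 and CXCL6 differed by 0.13 ± 0.20 and 0.15 ± 0.21. On chromosome 17, CCL2, CCL7, CCL11 and CCL8 are consecutive, and CCL2 and CCL8 were called while CCL7 (0.07 ± 0.22) and CCL11 (0.36 ± 0.19) were not. CCL5, a chemokine of T cells and of virus-infected cells, was not called either (-0.10 ± 0.10). CCL23 was the 1 chemokine that fell, at 61.6 to 80.8 in the add-back arrays and 93.2 to 116 in the siRNA-only arrays (-0.41 ± 0.09, adjusted p = 0.0243). It was not called without any one of the siRNA-only arrays, without wild-type add-back replicate 1 or T350A add-back replicate 2, with the mean of all probe sets, or with the 8 arrays alone. Of 17 chemokine receptors, 1 rose and 1 fell (5.88% each, against 4.06% and 4.49% of all genes). CXCR4 (the CXCL12 receptor) rose by 0.57 ± 0.08. ACKR3, a second CXCL12 receptor that does not signal through G proteins, fell (-0.78 ± 0.13, not called with the 8 arrays alone).

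The promoters of these genes are given because the called and uncalled neighbours can be compared letter by letter. All are from RefSeq (GRCh38.p14), 5′ to 3′ on the gene's strand and ending before the transcription start. Capitals mark the letters GGANNTTCC or its reverse complement GGAANNTCC, a form of the kappaB site that NF-kappaB binds. In the CXCL10 promoter the capitals that come first mark GAAA, any 2 bases and GAAA again, a form of the interferon-stimulated response element. The 250 bases before the start of CXCL8 (chr4:73740319-73740568, plus strand), CCL20 (chr2:227813592-227813841, plus strand) and CXCL10 (chr4:76023498-76023747, minus strand) were as follows.
CXCL8: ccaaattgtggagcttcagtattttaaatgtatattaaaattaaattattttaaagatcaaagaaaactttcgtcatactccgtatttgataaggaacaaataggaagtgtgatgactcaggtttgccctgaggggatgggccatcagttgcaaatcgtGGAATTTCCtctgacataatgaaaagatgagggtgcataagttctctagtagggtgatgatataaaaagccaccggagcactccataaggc
CCL20: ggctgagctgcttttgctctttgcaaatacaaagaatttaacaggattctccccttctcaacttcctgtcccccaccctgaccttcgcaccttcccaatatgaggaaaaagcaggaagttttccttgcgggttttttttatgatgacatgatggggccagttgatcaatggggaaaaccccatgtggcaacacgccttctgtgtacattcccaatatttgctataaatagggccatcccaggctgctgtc
CXCL10: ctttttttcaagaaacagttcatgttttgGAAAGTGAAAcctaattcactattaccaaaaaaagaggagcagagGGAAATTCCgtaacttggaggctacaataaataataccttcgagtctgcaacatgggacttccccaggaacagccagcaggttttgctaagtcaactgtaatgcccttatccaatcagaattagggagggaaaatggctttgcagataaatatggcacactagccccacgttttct
The kappaB letters began 91 bases before the start in CXCL8 and 176 before it in CXCL10, and the CCL20 window held none. That says only that these letters are not in this window.

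For the paralogs, 50 bases around the same letters are shown for CXCL2 (chr4:74099243-74099292, minus strand), CXCL3 (chr4:74038738-74038787, minus strand), CXCL11 (chr4:76036116-76036165, minus strand), and for 3 genes that were not called, CXCL1 (chr4:73869295-73869344, plus strand), CXCL5 (chr4:73998738-73998787, minus strand) and CXCL6 (chr4:73836569-73836618, plus strand).
CXCL2: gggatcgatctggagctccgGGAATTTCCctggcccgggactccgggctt
CXCL3: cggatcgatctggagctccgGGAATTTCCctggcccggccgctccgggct
CXCL11: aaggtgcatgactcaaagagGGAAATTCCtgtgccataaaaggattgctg
CXCL1: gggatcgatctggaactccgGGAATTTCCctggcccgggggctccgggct
CXCL5: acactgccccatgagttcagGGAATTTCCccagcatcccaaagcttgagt
CXCL6: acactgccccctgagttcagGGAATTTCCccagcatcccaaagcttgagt
The letters lay 75 to 78 bases before the start in CXCL2, CXCL3, CXCL11 and CXCL1, and 90 and 89 before it in CXCL5 and CXCL6. CXCL2, CXCL3 and CXCL1 shared the same letters, GGAATTTCC, within 2 bases of the same place, and CXCL2 and CXCL3 were called while CXCL1 was not. Over the chemokines with a promoter in the table, 5 of 8 called genes and 4 of 19 others (CCL1, CXCL1, CXCL5 and CXCL6) held the letters on either strand. These 8 include CCL23, which fell and did not hold the letters, so not every chemokine that rose is among them. Among 15384 tested genes with a promoter of 300 bases (250 before the start and 50 from it on), 4.61% held them, against 24% of the 100 called genes with the largest rise, 8.16% of all genes called higher and 4.29% of those called lower. The letters GGAA inside the motif are also the core of sites for ETS factors. A match is a description of letters, not a bound site.

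All 5 genes for NF-kappaB subunits rose. NFKB1, which encodes p105 and its product p50, had 2709 and 2104 in the wild-type add-back and 3138 and 2151 in the T350A add-back, against 871 and 812 with si-EZH2 and 799 and 803 with si-Control (1.58 ± 0.13, adjusted p = 0.000207). NFKB2, which encodes p100 and p52 of the non-canonical pathway, rose by 1.71 ± 0.13, and RELB, the partner of p52, by 1.72 ± 0.17. In these 3 genes the lowest add-back array was well above the highest siRNA-only array. REL, a subunit best known from lymphocytes, had 575 and 587 in the wild-type add-back and 1533 and 594 in the T350A add-back, against 244 and 243 with si-EZH2 and 264 and 238 with si-Control (1.53 ± 0.23, adjusted p = 0.00464). T350A add-back replicate 1 was again the highest array. RELA, the subunit p65, rose by 0.38 ± 0.06 (adjusted p = 0.00765), at 2218 to 2619.9 in the add-back arrays and 1829 to 1945 in the siRNA-only arrays. When the 8 transfection arrays were fitted alone, 3 of the 5 subunits were called, and RELA and REL were not.

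Of 10 feedback inhibitors of NF-kappaB, 8 rose and 0 fell. TNFAIP3 (A20, an enzyme that edits ubiquitin chains and stops the signal) had 3016 and 3043 in the wild-type add-back and 8287 and 3109 in the T350A add-back, against 203 and 182 with si-EZH2 and 167 and 175 with si-Control. That is a 24.1-fold higher mean signal, with a difference of 4.32 ± 0.24 (adjusted p = 3.94e-05). Its second probe set differed by 4.12. NFKBIZ, a nuclear IkappaB protein that helps induce a second wave of genes, had 1949 and 2740.2 in the wild-type add-back and 10257 and 2867 in the T350A add-back, against 235 and 232 with si-EZH2 and 203 and 206 with si-Control (3.92 ± 0.32, adjusted p = 0.000233). For both genes 3 add-back arrays were close together and T350A add-back replicate 1 was well above them.

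NFKBIA, which encodes IkappaB alpha, the inhibitor that is degraded on activation and then made anew, was at 6533 and 7072 in the wild-type add-back and 10005 and 7715 in the T350A add-back, against 1948 and 2026 with si-EZH2 and 1992 and 1903 with si-Control. The 4 siRNA-only arrays lay within a narrow range, and the rise of 1.97 ± 0.08 had an adjusted p of 7.83e-06. The other inhibitors that rose were NFKBIE (IkappaB epsilon, 2.15 ± 0.24), CYLD (a deubiquitinase, 1.35 ± 0.15), TNIP1 (a partner of A20, 1.20 ± 0.11), NFKBIB (IkappaB beta, 0.97 ± 0.17) and TNIP2 (0.49 ± 0.10). N4BP1 (0.13 ± 0.05) and TNIP3 (0.18 ± 0.27, near background in all 8 arrays) were not called. TNIP2 was not called without si-Control replicate 2 or either si-EZH2 array. Fitted on the 8 transfection arrays alone, 6 of the 10 were called.

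**Figure D2:**
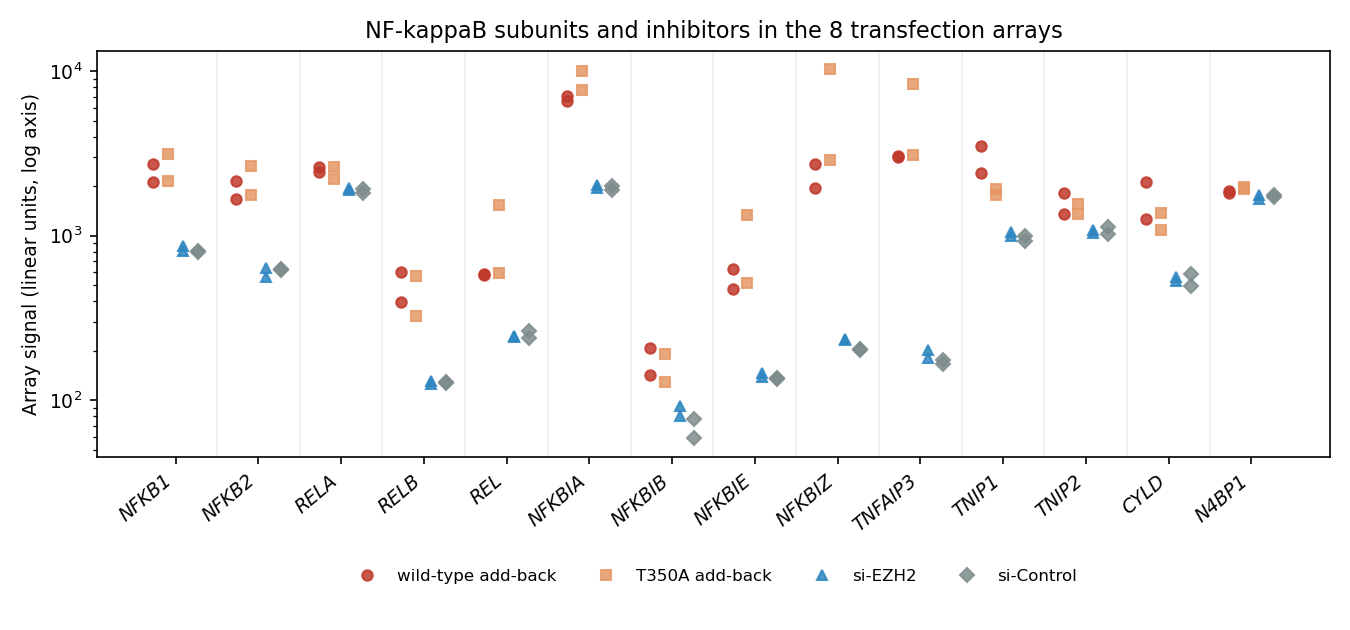
Array signal (log axis) of the 5 NF-kappaB subunit genes and of 9 feedback inhibitors, 1 point per array (circles wild-type add-back, squares T350A add-back, triangles si-EZH2, diamonds si-Control). The add-back arrays lie above the siRNA-only arrays for each gene shown, by a small margin for RELA (0.38) and N4BP1 (0.13, not called).

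The kappaB letters also stand before several genes of the pathway itself. The 250 bases before NFKBIA (chr14:35404750-35404999, minus strand) held them at 242 and at 81 bases before the start. Stretches of 50 bases are shown for NFKB1 (chr4:102501291-102501340, plus strand), REL (chr2:60881508-60881557, plus strand), NFKBIZ (chr3:101827748-101827797, plus strand) and TNFAIP3 (chr6:137867172-137867221, plus strand), all of them called higher.
NFKBIA: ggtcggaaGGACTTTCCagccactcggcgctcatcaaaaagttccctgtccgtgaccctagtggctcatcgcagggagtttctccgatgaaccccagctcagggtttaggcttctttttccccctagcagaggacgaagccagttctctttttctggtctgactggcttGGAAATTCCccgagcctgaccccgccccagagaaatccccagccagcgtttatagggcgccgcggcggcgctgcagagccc
NFKB1: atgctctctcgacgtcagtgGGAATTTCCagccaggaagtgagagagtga
REL: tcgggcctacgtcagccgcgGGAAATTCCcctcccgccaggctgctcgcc
NFKBIZ: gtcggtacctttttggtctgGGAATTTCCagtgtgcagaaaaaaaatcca
TNFAIP3: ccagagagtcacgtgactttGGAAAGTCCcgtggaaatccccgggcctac
The letters began 48 bases before the start in NFKB1, 46 in REL, 222 in NFKBIZ and 67 in TNFAIP3. Over these lists they were present in 2 of 4 subunit promoters and 3 of 9 inhibitor promoters, against 4.61% of tested genes.

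Upstream of NF-kappaB, 13 of 34 measured signalling genes rose and 0 fell. IRAK2, a kinase-like adaptor of interleukin 1 and Toll-like receptors, was at 1848 and 1261 in the wild-type add-back and 2115 and 1224 in the T350A add-back, against 267 and 277 with si-EZH2 and 322 and 289.6 with si-Control (2.38 ± 0.17, adjusted p = 0.00013). MAP3K8, a kinase held by p105, rose by 3.18 ± 0.28, with T350A add-back replicate 1 the highest array. TRAF3 (an adaptor of the non-canonical pathway and of nucleic acid sensing, 0.74 ± 0.06) and the partners MALT1 (1.10 ± 0.11) and BCL10 (0.54 ± 0.07), which form an activating complex, rose by less. The 34 genes had a median difference of 0.157, and 7 were called with the 8 arrays alone.

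Of 25 cytokine and growth factor genes of inflammation, 7 rose and 0 fell. TNFSF15 (TL1A, a TNF family cytokine) had 4794 and 3647 in the wild-type add-back and 6486 and 4045 in the T350A add-back, against 776 and 804 with si-EZH2 and 786 and 740.1 with si-Control (2.55 ± 0.14, adjusted p = 3.94e-05). TNF itself was at 358 and 536 in the wild-type add-back and 1532 and 485 in the T350A add-back, against 120.0 and 89.7 with si-EZH2 and 114 and 144 with si-Control. The groups did not overlap and the difference was 2.27 ± 0.31 (adjusted p = 0.00293). IL32, a cytokine of epithelial and T cells, had 774 and 262 in the wild-type add-back and 171 and 124 in the T350A add-back, while all 4 siRNA-only arrays and the DMSO and TSA arrays were listed at 1. Since 1 looks like a floor of these files, the difference of 4.02 ± 0.26 is set by that floor and by the constant added. Outside this list, TNFSF18 (the ligand of GITR, a receptor on T cells) was at 1224 to 3153 in the add-back arrays and 82.4 to 108 in the siRNA-only arrays (4.12 ± 0.25). CSF1 (the macrophage growth factor, 1.44 ± 0.20) and TNFSF10 (TRAIL, a death ligand, 0.77 ± 0.10) also rose.

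Among 29 acute phase and secreted defence genes, 6 rose and 0 fell. SERPINA3, the acute phase protease inhibitor alpha-1-antichymotrypsin, had 5669 and 2807 in the wild-type add-back and 4186 and 1567 in the T350A add-back, against 57.2 and 65.3 with si-EZH2 and 80.8 and 90.3 with si-Control (5.18 ± 0.30, adjusted p = 5.32e-05). The lowest of the 4 add-back arrays, T350A add-back replicate 2, was still far above every siRNA-only array. Complement factor B (CFB, 3.58 ± 0.23), the iron-binding defence protein LCN2 (3.34 ± 0.25), the protease inhibitor SERPINB7 (3.73 ± 0.26) and elafin (PI3, 1.85 ± 0.23) rose too. In these 4 genes both T350A add-back arrays were below both wild-type arrays, as with LCN2, at 3341 and 1424 in the wild-type add-back and 505 and 886 in the T350A add-back, but the difference between the constructs was not past the threshold in any of them (adjusted p = 0.0506 for SERPINB7 and 0.116 for LCN2). Without wild-type add-back replicate 2, 5 genes of the whole list were called lower in T350A, and without T350A add-back replicate 2, 1 was.

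Of 42 other genes known to be induced by NF-kappaB or TNF, 18 rose and 0 fell. SOD2, the mitochondrial superoxide dismutase, was at 4214 and 2866 in the wild-type add-back and 2833 and 2288 in the T350A add-back, against 517 and 586 with si-EZH2 and 438 and 449 with si-Control (2.55 ± 0.12, adjusted p = 1.86e-05). With the 8 arrays alone 11 of the 42 were called. The transcription factors CEBPD (2.33 ± 0.12), ELF3 (1.57 ± 0.12) and IRF1 (3.03 ± 0.28) and the GTPase RND1 (2.67 ± 0.24) rose as well. IRF1, the interferon regulatory factor that drives antigen presentation genes, had 1505 and 1631 in the wild-type add-back and 5201 and 1659 in the T350A add-back, against 224 and 248 with si-EZH2 and 279.5 and 243 with si-Control. T350A add-back replicate 1 was again the highest array, and the groups did not overlap.

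**Figure D3:**
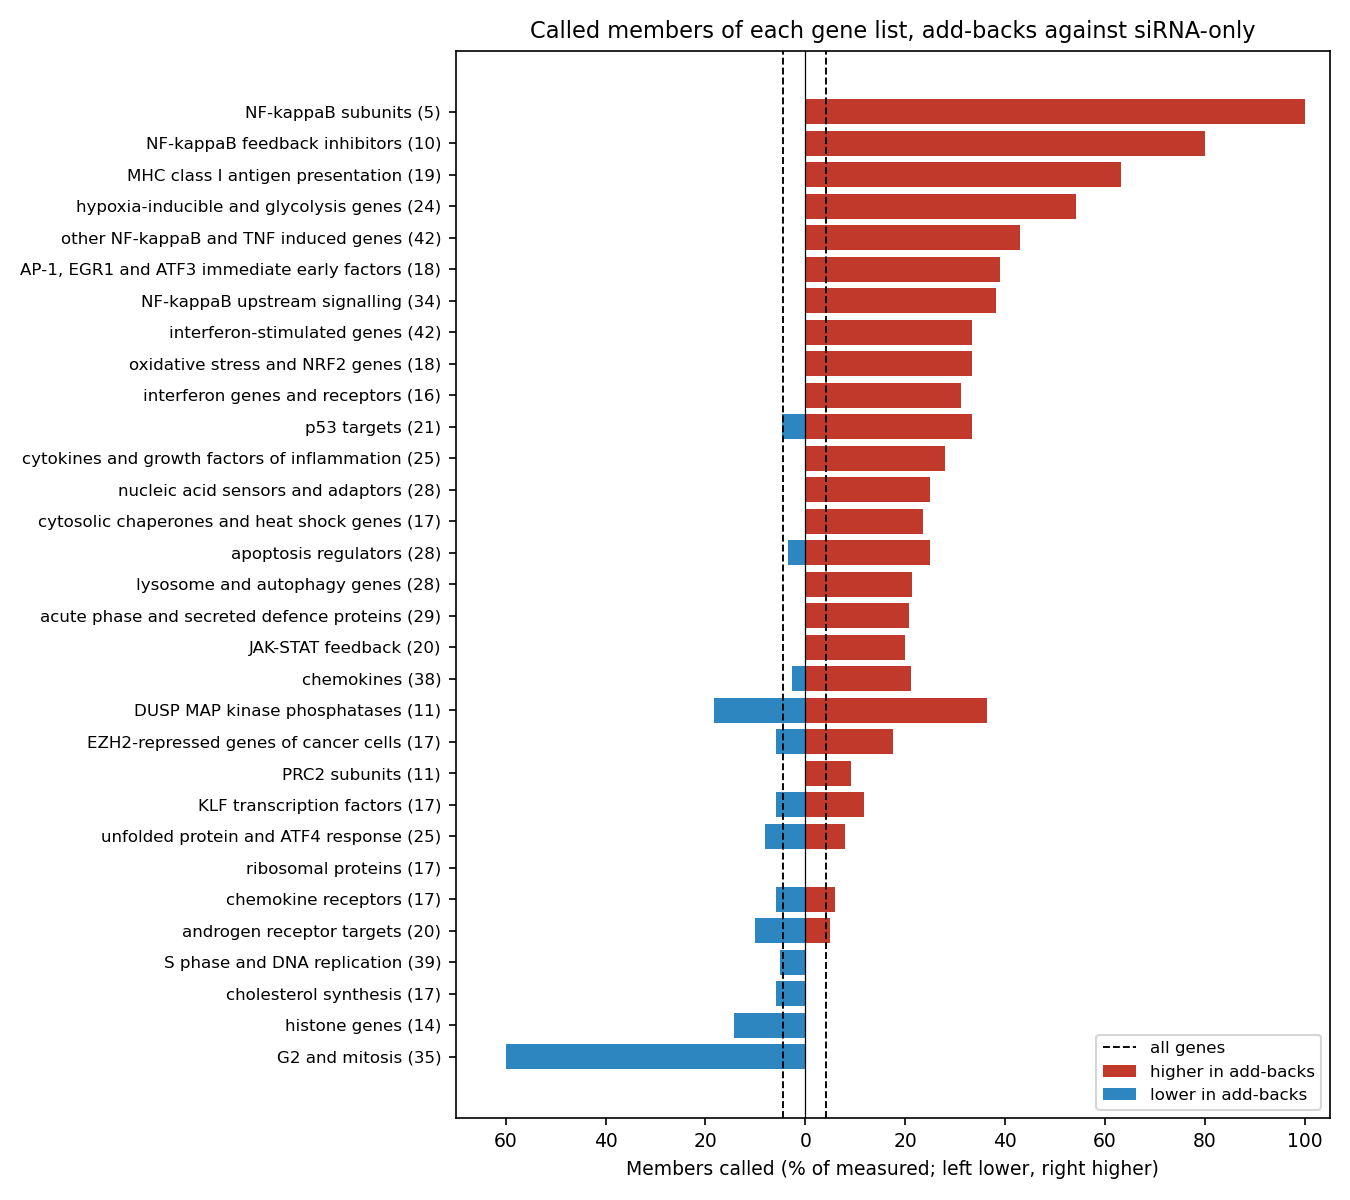
Share of the measured members of each gene list (their number in brackets) called higher (red, to the right) and lower (blue, to the left) in the add-back against the siRNA-only arrays. Dashed lines mark the shares over all genes, 4.06% higher and 4.49% lower. All 5 NF-kappaB subunits and 8 of 10 feedback inhibitors were called higher, while G2 and mitosis genes have the longest bar to the left (60%). Lists of cell type markers are not drawn.

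Some nucleic acid sensors and interferon system genes rose as well. Of 28 sensors and adaptors, 7 rose and 0 fell, among them IFIH1 (MDA5, a sensor of double-stranded RNA, 1.25 ± 0.14), TRIM25 (a ubiquitin ligase that helps the RNA sensor RIG-I, 0.59 ± 0.08), IKBKE (a kinase of interferon induction, 0.76 ± 0.14), TLR3 (0.50 ± 0.11) and TANK (0.28 ± 0.07). IFIH1 had 1164 and 701 in the wild-type add-back and 631 and 512 in the T350A add-back, against 309 and 326 with si-EZH2 and 268 and 269 with si-Control, with no overlap between the groups. The count of 7 sensors was 3 without si-Control replicate 2 or either si-EZH2 array, 4 without any DMSO, TSA, Roscovitine or T350A add-back array or without si-Control replicate 1, and 2 with the 8 arrays alone. TANK kept its call in only 2 of 14 fits without 1 array (si-Control replicate 1 or wild-type add-back replicate 2), and TLR3 was not called without any one siRNA-only array or without T350A add-back replicate 2. Of 16 interferon genes and receptor components, 5 rose and 0 fell, led by IFNGR1, a chain of the interferon gamma receptor, at 4481 to 7534 in the add-back arrays and 1402 to 1708 in the siRNA-only arrays (1.79 ± 0.10). JAK1 (0.31 ± 0.05), IFNAR1 (0.54 ± 0.09), IFNGR2 (0.63 ± 0.11) and TYK2 (0.25 ± 0.05) were the other 4, all of them receptor chains or their kinases. TYK2 was not called without wild-type add-back replicate 1, si-EZH2 replicate 1 or si-Control replicate 2, and 3 of the 16 were called with the 8 arrays alone. IFNB1, the interferon beta gene, was not called, at a mean of 61.8 in the add-back arrays and 39.0 in the siRNA-only arrays (0.50 ± 0.21, adjusted p = 0.198).

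Of 42 interferon-stimulated genes, 14 rose and 0 fell, with a median difference of 0.255. GBP1, a guanylate-binding protein of the interferon gamma response, had 2253 and 1072 in the wild-type add-back and 743 and 402 in the T350A add-back, against 44.2 and 40.8 with si-EZH2 and 53.6 and 41.5 with si-Control (3.95 ± 0.24, adjusted p = 5.61e-05). The T350A arrays were below the wild-type arrays and above all siRNA-only arrays. GBP2 (1.71 ± 0.17), IFITM1 (1.05 ± 0.10), OAS3 (0.52 ± 0.07) and TRIM21 (0.51 ± 0.08) followed. Among members often used as markers of type I interferon, ISG20 (0.89 ± 0.14), IFI44 (0.61 ± 0.11), IFIT5 (0.61 ± 0.12), IFI6 (0.43 ± 0.11) and IFIT3 (0.37 ± 0.08) rose, while ISG15 (0.10 ± 0.07), IFIT1 (0.24 ± 0.17) and MX1 (-0.15 ± 0.16) were not called. These 8 were chosen after their values were seen. The letters GAAA, any 2 bases, GAAA (on either strand) stood in the promoters of 12 of 12 called and 13 of 22 other members, against 2.94% of tested genes and 7.72% of genes called higher. The count of called members was 8 without si-Control replicate 2 or si-EZH2 replicate 1, and 4 when the 8 arrays were fitted alone.

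Of 19 genes of MHC class I antigen presentation, 12 rose and 0 fell. TAP1, a peptide transporter, had 2263 and 1378 in the wild-type add-back and 1339 and 1469.6 in the T350A add-back, against 656 and 667 with si-EZH2 and 637 and 605 with si-Control (1.28 ± 0.14, adjusted p = 0.00126). TAPBP (tapasin, which loads peptides, 1.31 ± 0.10) rose as much. The already bright class I heavy chain genes HLA-B (4504 to 6997 in the add-back arrays and 3212 to 3504 in the siRNA-only arrays, 0.69 ± 0.08), HLA-E (0.66 ± 0.08) and HLA-C (0.55 ± 0.07) rose by less. HLA genes share sequence, so their probe sets may read one another's transcripts. The median difference from the siRNA-only arrays was 0.306 for the T350A add-back and 0.592 for the wild-type add-back. T350A was below wild-type in 18 of 19 genes, against 36.4% of all genes. No gene of this list passed the threshold between the constructs, except that 8 did, all lower in T350A, without wild-type add-back replicate 2.

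Stress and immediate early genes rose in part. Of 18 AP-1, EGR1 and ATF3 factors 7 rose and 0 fell, among them JUNB, at 1910.4 and 2019 in the wild-type add-back and 3705 and 2141 in the T350A add-back, against 726 and 542 with si-EZH2 and 436 and 509 with si-Control (2.08 ± 0.16, adjusted p = 0.000207). The others named by the rule were MAFF (2.95 ± 0.24), IER5 (0.95 ± 0.14), EGR1 (0.54 ± 0.07) and JUND (0.31 ± 0.05). Of 11 DUSP phosphatases, which switch off MAP kinases, 4 rose (DUSP5, 1.59 ± 0.16, DUSP10, 0.89 ± 0.15, DUSP1, 0.80 ± 0.08, and DUSP16, 0.54 ± 0.09) and 2 fell (one of them DUSP2, -0.34 ± 0.07). Neither fall was called without T350A add-back replicate 1, si-Control replicate 1 or either si-EZH2 array, and the count of falls was 1 without si-Control replicate 2 or any 1 of the 6 untransfected arrays. KLF4, a transcription factor of epithelial differentiation, rose by 2.16 ± 0.15 and KLF5 by 0.64 ± 0.08, the 2 of 17 KLF genes that rose, with 4 called without T350A add-back replicate 2. The 1 that fell, KLF11 (-0.20 ± 0.05), kept its call in only 2 of 14 fits (without wild-type add-back replicate 2 or T350A add-back replicate 2). The KLF shares were 11.8% higher and 5.88% lower, against 4.06% and 4.49% of all genes. Of 20 genes of JAK-STAT feedback and the interleukin 6 receptor family 4 rose and 0 fell, IL6ST (gp130, the shared receptor chain, 0.64 ± 0.07) and PIM3 (a kinase, 0.79 ± 0.14) among them, but 2 were called without any one siRNA-only array, without wild-type add-back replicate 1 or without T350A add-back replicate 2, and 1 with the 8 arrays alone. Among 18 oxidative stress and NRF2 genes 6 rose, led by HMOX1 (heme oxygenase, 1.97 ± 0.16) and AKR1C1 (an aldo-keto reductase, 1.11 ± 0.20), with SQSTM1 (p62, 0.55 ± 0.05) and GCLM (0.55 ± 0.08). Optineurin (OPTN, an autophagy receptor, 2.09 ± 0.16) led the 6 of 28 lysosome and autophagy genes that rose. Of 17 cytosolic chaperones 4 rose and 0 fell, each by under 1 (DNAJA1, 0.51 ± 0.07). With the 8 arrays alone the called genes were 3 of 18 AP-1 factors, 2 of 18 NRF2 genes, 3 of 28 lysosome genes and 1 of 17 chaperones.

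Of 21 p53 targets 7 rose and 1 fell, with PLK2 (1.54 ± 0.14) and the death receptor FAS (0.72 ± 0.10) ahead, and of 28 apoptosis regulators 7 rose and 1 fell. The shares were 33.3% and 25% higher, against 4.06% of all genes, and 4.76% and 3.57% lower, against 4.49%. The p53 targets called higher were 4 without si-Control replicate 2 or si-EZH2 replicate 1 and 3 with the 8 arrays alone, and the fall was not called without si-Control replicate 1 or either si-EZH2 array, while 2 fell without T350A add-back replicate 2. For apoptosis regulators 2 fell without wild-type add-back replicate 2, and 2 rose with the 8 arrays alone. Besides FAS, the apoptosis genes that rose included PMAIP1 (NOXA, which promotes death, 0.63 ± 0.09) and BIRC2 (cIAP1, an inhibitor of death that acts in NF-kappaB signalling, 0.42 ± 0.07). The unfolded protein and ATF4 response showed no common direction, with 2 of 25 genes higher (DNAJB9, 0.65 ± 0.10, and VLDLR, 0.41 ± 0.08) and 2 lower (SEL1L, -0.30 ± 0.05, and TRIB3, -0.32 ± 0.08). These were 8% each way, against 4.06% and 4.49% of all genes. TRIB3 kept its call in only 1 of 14 fits (without wild-type add-back replicate 2, where 4 genes of the list fell), and VLDLR was not called without either si-Control array, si-EZH2 replicate 2, wild-type add-back replicate 1 or T350A add-back replicate 2.

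The falls were smaller, and the list with the largest share of them was G2 and mitosis. Of its 35 genes, 21 fell and 0 rose (60%, against 4.49% of all genes), with a median difference of -0.34. KIF23, a kinesin of the midbody, had 109 and 119 in the wild-type add-back and 159 and 162 in the T350A add-back, against 265 and 281 with si-EZH2 and 209.9 and 248 with si-Control (-0.81 ± 0.08, adjusted p = 0.000541). The wild-type arrays were lowest, the T350A arrays next, and the siRNA-only arrays highest. KIF11, the kinesin that drives spindle poles apart, had 299 and 365 in the wild-type add-back and 429.8 and 458 in the T350A add-back, against 609 and 641 with si-EZH2 and 478 and 492 with si-Control (-0.50 ± 0.06). The T350A arrays lay only just under the si-Control arrays. DLGAP5 (-0.45 ± 0.06), HMMR (-0.47 ± 0.07) and TTK (-0.44 ± 0.06), which serve the spindle and its checkpoint, fell to a similar degree, but for TTK the arrays overlapped, with 676 and 761 in the T350A add-back and 736 and 799.8 with si-Control.

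Against the siRNA-only arrays, the list's median difference was -0.204 for the T350A add-back and -0.501 for the wild-type add-back. T350A was above wild-type in 34 of 35 genes and below it in 1, while over all genes it was below wild-type in 36.4%. Taken alone, the T350A add-back had 1 of the 35 genes under the adjusted threshold and the wild-type add-back 32, where over all genes the T350A add-back had 0.334% and the wild-type add-back 7.96% lower. These are separate contrasts that share the siRNA-only arrays. In the test between the constructs no gene of the list passed the threshold, except that 17 did, all higher in T350A, without wild-type add-back replicate 2. Of 39 S phase and DNA replication genes, 2 fell (5.13%, near the 4.49% of all genes called lower). These were CCNE2 (cyclin E2, -0.49 ± 0.07) and RRM2 (a ribonucleotide reductase subunit, -0.32 ± 0.09). The list's median difference from the siRNA-only arrays was -0.031 for T350A and -0.369 for wild-type. Alone, the wild-type add-back had 16 of the 39 genes lower under the adjusted threshold, against 7.96% of all genes. The T350A add-back alone had 1, against 0.334%. RRM2 kept its call in only 1 of 14 fits (without wild-type add-back replicate 2, where 5 genes of that list fell and 18 were called higher in T350A than in wild-type). The number of mitotic genes called was 4 with the 8 transfection arrays fitted alone, 12 or 13 without any one siRNA-only array or without T350A add-back replicate 1, and 27 after quantile normalization.

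As background, promoters of mitotic genes often carry the letters TTTGAA, a form of the cell cycle genes homology region bound by the DREAM repressor complex, near CCAAT boxes bound by NF-Y. Capitals mark these letters, or their reverse complements TTCAAA and ATTGG, in 80 bases before KIF23 (chr15:69414244-69414323, plus strand), KIF11 (chr10:92593050-92593129, plus strand) and DLGAP5 (chr14:55191665-55191744, minus strand), which fell.
KIF23: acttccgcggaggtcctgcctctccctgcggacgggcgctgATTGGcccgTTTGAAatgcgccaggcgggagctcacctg
KIF11: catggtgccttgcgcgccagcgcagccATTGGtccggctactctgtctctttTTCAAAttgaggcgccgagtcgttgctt
DLGAP5: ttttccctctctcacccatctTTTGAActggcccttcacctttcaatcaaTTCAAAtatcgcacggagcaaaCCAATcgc
TTTGAA was in 12 of 19 promoters of members that fell and 8 of 11 of the others, against 11.9% of tested genes. CCAAT was in 25 of 30, against 36.1% of tested genes.

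The largest falls lay in genes of no common list. KNG1 (kininogen) was at 22.1 and 14.9 in the wild-type add-back and 24.1 and 17.3 in the T350A add-back, against 77.8 and 98.7 with si-EZH2 and 112 and 73.1 with si-Control, all dim signals (-1.57 ± 0.21, adjusted p = 0.00299). Its 2 other probe sets differed by -0.068 and 0.145. RIPOR2 was at 269.7 and 234 in the wild-type add-back and 288 and 314 in the T350A add-back, against 612 and 570.2 with si-EZH2 and 482 and 488 with si-Control (-0.92 ± 0.07, adjusted p = 0.00014). The groups did not overlap. SLITRK6 (-0.99 ± 0.15), a neuronal membrane protein, CLDN8 (-0.96 ± 0.11), a tight junction claudin, NANOS1 (-0.95 ± 0.09), an RNA-binding repressor, PDE4DIP (-1.03 ± 0.23), a centrosome and Golgi scaffold, and the hormone relaxin RLN2 (-0.82 ± 0.12) also fell. The non-coding transcripts LOC100507250 (-1.12 ± 0.24), ARHGEF26-AS1 (-1.07 ± 0.17) and MNX1-AS1 (-0.99 ± 0.19) completed the 10 genes with the largest fall and no overlap between the arrays. PDE4DIP was not called without any one siRNA-only array, without wild-type add-back replicate 1 or with the 8 arrays alone. LOC100507250 was not called without si-Control replicate 2, either si-EZH2 array, wild-type add-back replicate 1 or either T350A add-back array, and MNX1-AS1 not without si-Control replicate 1 or si-EZH2 replicate 2, nor with the 8 arrays alone. RLN2 was lowest in the wild-type add-back (434 and 658), at 789 and 692 in the T350A add-back, and differed between the siRNA groups (917 and 862 with si-EZH2 and 1512 and 1341 with si-Control). Of 20 androgen receptor targets 1 rose (NDRG1, also a hypoxia gene) and 2 fell (ACP3 and TRPM8, with the losses given above), with a median of -0.125. The shares were 5% higher and 10% lower, against 4.06% and 4.49% of all genes. NDRG1 was not called without T350A add-back replicate 2. Of 14 histone genes 0 rose and 2 fell (14.3%, against 4.49% of all genes). These were H2AC6 (-0.30 ± 0.05) and H2AX (-0.41 ± 0.11), but H2AX kept its call in only 2 of 14 fits (without wild-type add-back replicate 2 or T350A add-back replicate 2). Of 17 cholesterol synthesis genes 1 fell (5.88%, near the 4.49% of all genes called lower). This gene, SC5D (-0.38 ± 0.08), was not called without any one siRNA-only array. Of 14 genes that mark prostate lines independent of androgen 2 were called higher (LAMB3, a laminin chain, 1.90 ± 0.23, and EGFR, 0.36 ± 0.08) and 0 lower. The 14 differences ran from -0.79 to 1.90, with a median of 0.034. In the wild-type add-back alone, 3 of them were higher and 1 lower under the adjusted threshold. EGFR was not called without any one siRNA-only array, wild-type add-back replicate 1 or T350A add-back replicate 1.

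Hypoxia-inducible and glycolysis genes differed more from the siRNA-only arrays under the wild-type construct than under T350A. Of 24 members 13 were called higher (54.2%, against 4.06% of all genes) and 0 lower. In 6 of the 24 the add-back arrays lay above the siRNA-only arrays without overlap, as did 5.55% of all genes. HK2, hexokinase 2, had 4173 and 2944 in the wild-type add-back and 1041 and 1474 in the T350A add-back, against 1104 and 1057 with si-EZH2 and 897 and 894 with si-Control (1.07 ± 0.13 for both constructs together). The wild-type arrays stood alone, and T350A add-back replicate 1 lay among the si-EZH2 arrays. KDM3A, a histone demethylase induced by low oxygen, had 4229 and 3231 in the wild-type add-back and 1197 and 1577 in the T350A add-back, against 1150.2 and 1204 with si-EZH2 and 1114 and 1102 with si-Control (0.97 ± 0.10). Its T350A add-back replicate 1 was likewise inside the siRNA-only range. The differences of T350A from wild-type were -1.49 ± 0.18 in HK2 and -1.42 ± 0.14 in KDM3A (adjusted p = 0.0192 and 0.0157), and 10 of the 24 genes were called lower in T350A than in wild-type (0.162% of all genes). That count was 3 without either si-EZH2 array, 5 without T350A add-back replicate 1, 6 without either si-Control array or wild-type add-back replicate 1, 16 without wild-type add-back replicate 2, while the 8 arrays fitted alone gave 0 (limma, 2427 unadjusted over all genes).

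VEGFA, the vascular growth factor, differed from that pattern, with 6962 and 6719.9 in the wild-type add-back and 7104 and 6499.6 in the T350A add-back, against 4634 and 4475 with si-EZH2 and 4471 and 4696 with si-Control. Both constructs were above all siRNA-only arrays (0.58 ± 0.06, adjusted p = 0.000683), and they differed from each other by -0.01 ± 0.08. ANKRD37, an ankyrin repeat protein, rose under both but more under wild-type, at 2183 and 1876 in the wild-type add-back and 598 and 798 in the T350A add-back, against 369 and 397 with si-EZH2 and 345 and 346 with si-Control. VEGFA and ANKRD37 were the 2 genes of this list under the adjusted threshold in the T350A add-back alone, against 20 in the wild-type add-back alone. Over all genes these shares were 1.27% for the T350A add-back and 4.98% for the wild-type add-back. Without T350A add-back replicate 2, 7 of the 24 were called higher against the siRNA-only arrays, and HK2 was not.

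**Figure D4:**
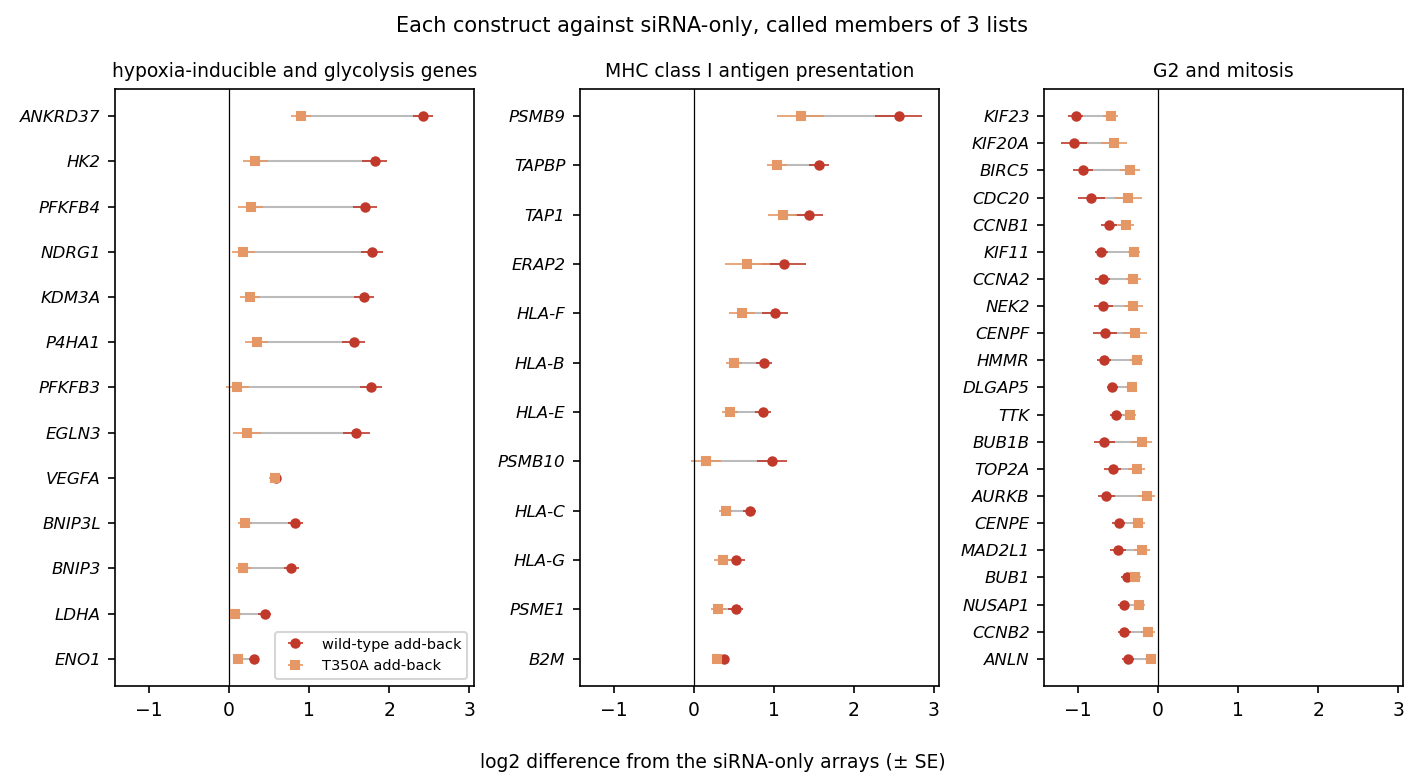
Log2 difference from the siRNA-only arrays (± SE) for the wild-type add-back (red circles) and the T350A add-back (orange squares) in the called members of 3 lists. The plot shows HK2 at 1.82 for wild-type and 0.33 for T350A, and VEGFA at 0.58 and 0.57. The call itself requires the same direction under both constructs, which share the siRNA-only arrays.

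Over the whole response the constructs mostly moved the same way, which the rule requires, but not by the same amount. T350A was below wild-type in 591 of the 802 genes called higher (73.7%, against 36.4% of all genes) and above wild-type in 810 of the 888 called lower (91.2%). The median T350A minus wild-type difference over all genes was 0.06, so over all genes too T350A lay above wild-type more often than below it. The test between the constructs called 41 genes (0.207%), 9 higher (0.0455%) and 32 lower (0.162%) in T350A, and 3242 had an unadjusted p under 0.05. Quantile normalization gave 9 higher and 67 lower, and a common median 7 higher and 73 lower. Of the 1690 genes of the shared response, 20 were also called between the constructs: 16 that rose were lower in T350A, 1 that rose was higher, and 3 that fell were higher. Without wild-type add-back replicate 2 the test called 614 genes higher and 406 lower in T350A, without T350A add-back replicate 2 it called 70 and 70, without si-EZH2 replicate 1 or replicate 2 it called 0 and 3 (2959 at an unadjusted limma p under 0.05 in each fit), and with the 8 transfection arrays alone it called 0 (2427 unadjusted).

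Several of the largest rises were close to equal under both constructs. T350A minus wild-type was -0.06 ± 0.17 in CCL20, 0.07 ± 0.23 in CXCL8, 0.01 ± 0.33 in CCL8 and 0.06 ± 0.46 in CCL2, and none was called between the constructs. Without T350A add-back replicate 2, 2 of the 38 chemokine genes were called higher in T350A. At the other end, PLOD2 (a collagen lysyl hydroxylase) had 489 and 241 in the wild-type add-back and 46.7 and 51.4 in the T350A add-back, against 35.0 and 28.6 with si-EZH2 and 32.9 and 49.5 with si-Control. T350A differed from wild-type by -2.47 ± 0.27 (adjusted p = 0.0173), and the T350A arrays lay next to the higher si-Control array. Its rise in the shared response was not called without si-Control replicate 1. SERPINB7 (-2.38 ± 0.37), BHLHE40 (-1.99 ± 0.31), a circadian and hypoxia-induced repressor, and MIR210HG (-1.79 ± 0.33), the host of a hypoxia-induced microRNA, came next and were not called between the constructs. BHLHE40's rise in the shared response was not called without T350A add-back replicate 2. Genes called in the shared response with the largest T350A excess were IER3 (1.36 ± 0.50), an immediate early survival gene, NFKBIZ (1.23 ± 0.45), and, among the falls, the non-coding transcripts LOC100507250 (1.14 ± 0.34) and LINC01254 (1.12 ± 0.22), and none of these 4 passed that test. LINC01254's fall was not called without either DMSO array, si-Control replicate 1, si-EZH2 replicate 1, wild-type add-back replicate 1 or either T350A add-back array. In IER3 the T350A value rested on replicate 1, with 395 and 512 in the wild-type add-back and 2418 and 574 in the T350A add-back, against 149.7 and 117.4 with si-EZH2 and 148 and 136 with si-Control.

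Of 11 PRC2 subunit genes, 1 rose (9.09%, against 4.06% of all genes) and 0 fell. The gene was JARID2, an accessory subunit (0.39 ± 0.06), and it was not called with the 8 arrays alone. Of 17 genes known to be repressed by EZH2 in cancer cells 3 rose (17.6%, against 4.06% of all genes) and 1 fell (5.88%, against 4.49%). The rises were CXCL10, FBXO32 (a muscle ubiquitin ligase, 0.54 ± 0.06) and CDKN2A (0.40 ± 0.07), and the fall was MSMB (-0.30 ± 0.08), which kept its call in only 1 of 14 fits (without wild-type add-back replicate 2). IGFBP3, which binds insulin-like growth factors, was at 1934 and 1662 in the wild-type add-back and 804 and 935 in the T350A add-back, against 598 and 590.0 with si-EZH2 and 939.8 and 851 with si-Control, and was not called since the T350A mean lay below the si-Control mean.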

How the data were processed

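The deposited values are linear signal intensities of 54613 Affymetrix probe sets on 14 arrays. How the authors summarized and scaled these intensities, and on which genome build, is not stated in those sources that were used. Values of exactly 1, which make up 3.2% to 3.9% of probe sets on an array, look like a floor, and 2 very bright entries (1570774.75 and 109942.86) were kept as deposited. A second deposited table of 7022 probe sets held the same values and was not used.

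Probe sets were named from the platform annotation, with symbols updated through RefSeq gene IDs: 41091 carried 1 symbol, 1801 several and 11721 none, and the last 2 kinds were not tested. Each of 19775 genes was represented by its probe set with the highest mean over all arrays. Since the values are array intensities, log2(intensity + 16) was fitted with limma 3.58.1 (R 4.3.3), with 7 group means over all 14 arrays (7 residual degrees of freedom), and p-values were adjusted by the Benjamini-Hochberg method over all genes. Every adjusted p in the text comes from this moderated limma fit. The named genes are EZH2, the 12 largest rises and 10 largest falls without overlap, all members of the chemokine, subunit and inhibitor lists, up to 5 members of each other list with the smallest p, markers with a mean signal above 200, and the 4 called genes with the largest difference between constructs each way. Not all of these genes appear in the text. The members, lists and tests were chosen with earlier results of these data known. Promoters are RefSeq entries (GRCh38.p14), which 15384 tested genes have.

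On simulated arrays for these 19775 genes, the add-back minus siRNA-only test recovered 23, 48, 49 and 50 of 50 genes changed by 0.5, 1, 2 and 4 on the log2 scale. It called 9 of 19575 unchanged genes. The simulated noise was independent between genes and between arrays, so these counts do not cover deviations shared by many genes of an array. The number of arrays limits the precision. Alternatives covered the filter, scaling, pseudocount, probe set choice, arrays fitted, replicate number as a block, prior and each array left out. Tables were made with Python 3.11.15 and pandas 2.3.3.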

Additional observations from a re-analysis of the deposited data

Results flagged for a closer look

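For 9 named genes the effects of the 2 constructs, set against the same siRNA-only arrays, differed in the limma test of T350A minus wild-type add-back (adjusted p under 0.05). PLOD2 differed by -2.47, HMOX1 by -1.68 (adjusted p = 0.0291), NDRG1 by -1.61, ANKRD37 by -1.53, HK2 by -1.49 and KDM3A by -1.42, all lower in T350A. HMOX1 had 5697 and 3912 in the wild-type add-back and 1137 and 1875 in the T350A add-back, against 592 and 541 with si-EZH2 and 817 and 716 with si-Control. NDRG1, a hypoxia- and androgen-induced gene, had 4701 and 3294 in the wild-type add-back and 1117 and 1462 in the T350A add-back, against 1109.6 and 1041 with si-EZH2 and 1216 and 1164 with si-Control. IGFBP3 differed by -1.03 (adjusted p = 0.0157) and FBXO32 by -0.68 (adjusted p = 0.0257), both known as genes that EZH2 represses. Neither of them passed this test without either si-EZH2 array or without wild-type add-back replicate 1. TRIM2, a ubiquitin ligase, chosen after its values were seen, was the 1 gene higher in T350A, by 0.75, with 176 and 185 in the T350A add-back and 93.5 and 109 in the wild-type add-back. In all 9 genes both T350A arrays lay on the same side of both wild-type arrays, which choosing genes by this test favours. With the 8 transfection arrays fitted alone, none of the 9 passed this test. HMOX1 did not pass it without any one siRNA-only or untransfected array, nor without replicate 1 of either add-back. TRIM2 did not pass it without either si-EZH2 array.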

How the results depend on the processing

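No called gene named in the text changed sign under any alternative. Of 150 named genes that were called, 89 were called in every fit and 119 in each of the 14 fits without 1 array. The count of the response moved most when the 8 transfection arrays were fitted alone, which leaves 4 residual degrees of freedom (288 higher and 137 lower), or when the threshold was required against each siRNA (346 and 192) or in all 4 differences between groups (97 and 3). Leaving out 1 array gave 441 to 1037 higher and 300 to 1205 lower. The T350A minus wild-type count moved with most choices: 80 higher and 98 lower for genes of higher mean signal, 67 lower after quantile normalization, 73 lower with a common median, 17 and 58 with pseudocount 64, 25 and 91 with a prior that was robust and followed intensity, and 59 and 62 without T350A add-back replicate 2 and Roscovitine replicate 2. With the 8 arrays alone limma called 0 higher and 0 lower, with 2427 genes at an unadjusted p under 0.05. Leaving out 1 array gave 0 to 614 higher and 3 to 406 lower (2959 unadjusted where 0 were higher). Apart from the fits with fewer arrays or stricter thresholds, the cause was not tested. Between the 4 transfection groups, the differences of replicate 1 from replicate 2 correlated at -0.244 to 0.112 over the 9887 genes of higher mean signal. Whether replicate numbers pair the samples was not tested beyond these values. With the replicate block 763 genes were higher and 823 lower, and 5 and 23 between the constructs. Signals near the floor limit folds of dim genes such as IL32, CCL2 and KNG1.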

Other observations

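A pair of probe sets outside the lists rose in the add-back arrays while the other probe sets of the same genes did not (chosen after their values were seen). One probe set of MAP2K5, a kinase of the ERK5 pathway, had 1974 and 1503 in the wild-type add-back and 1824 and 1474 in the T350A add-back, against 67.1 and 88.3 with si-EZH2 and 415 and 202 with si-Control. Its difference was 3.33 ± 0.21, and the gene's 5 other probe sets differed by -0.03 to 0.26. A probe set of ZNF227, a zinc finger gene, had 1163 and 842 in the wild-type add-back and 1339 and 822 in the T350A add-back, against 191 and 172 with si-EZH2 and 203 and 228 with si-Control. Its difference was 2.28 ± 0.16, and the gene's other probe set differed by -0.01.

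CCL20 and CXCL8 were also high in the TSA arrays, where CCL20 had 2265 and 2196 with TSA, against 14.7 and 12.4 with DMSO. CXCL8 had 2339.6 and 2289 with TSA, against 34.7 and 34.8 with DMSO. These arrays had no transfection and were not part of the comparison.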
